A study of Homo sapiens with 9 samples.

Results

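The genes described here are vimentin (VIM) and 9 genes for proteins of the mesenchymal extracellular matrix: FN1, SPARC, POSTN, TNC, TGFBI, THBS1, FBN1, LOX and P3H3. They were taken by name, as a list drawn up with earlier results of these data known, and are 10 of the 62666 genes in the deposited tables. All 10 passed the filter on low counts and were among the 17910 genes tested. For FN1 and TNC, the transcripts of each gene were also compared.

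Vimentin is the intermediate filament protein of fibroblasts and other mesenchymal cells, and cultured mammary epithelial cells of basal character often make it as well. Fibronectin (FN1) and fibrillin-1 (FBN1) are secreted and assembled into fibres outside the cell, which cells hold through integrins and syndecans. Tenascin-C (TNC), thrombospondin-1 (THBS1), osteonectin (SPARC), periostin (POSTN) and the TGF-beta-induced protein (TGFBI) modify how cells attach to that matrix, while LOX cross-links collagen and elastin. P3H3 belongs to the prolyl 3-hydroxylases, which act on collagen in the endoplasmic reticulum. Genes of this kind are widely read as marks of epithelial-mesenchymal transition, the loss of epithelial features in favour of mesenchymal ones.

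Polyadenylated RNA of 3 related human mammary epithelial lines was sequenced in 3 libraries each as a series of stages from normal-like to malignant cells. MCF10A does not form tumours. MCF10AT1, its derivative carrying mutant active HRAS, models a premalignant state, and MCF10Ca1a, further along that lineage, forms carcinomas in mice. MCF10A and MCF10Ca1a were cultured with 5% horse serum and MCF10AT1 with 2.5%. The DMEM/F12 medium of all 3 lines also held insulin at 10 µg/mL, EGF at 20 ng/mL, cholera toxin at 100 ng/mL, hydrocortisone at 500 ng/mL, glutamine at 2 mM and NaHCO3 at 14 mM. Each stage is represented by a single line, so stage and line cannot be told apart, and in the comparisons with MCF10AT1 serum cannot be told apart from line either. No label says that the 3 libraries of a line came from separate cultures, so p-values measure the spread between libraries, which may be technical.

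Libraries held 32.9 to 69.5 M counts, with the 3 MCF10Ca1a libraries the shallowest (32.9 to 35.2 M). All 10 epithelial markers examined were detected in every line, with a summed level of 2850 to 3960 TPM (a deposited scale of transcripts per length and depth) in MCF10A, 3910 to 4370 TPM in MCF10AT1 and 5030 to 5180 TPM in MCF10Ca1a. Its genes moved apart: in MCF10Ca1a against MCF10A 7 rose and 3 fell (edgeR, adjusted p under 0.05), where 39% of all genes tested rose and 41.9% fell. Named after their values were seen, the genes that fell were KRT14, which went from 315.5 CPM (counts per library total scaled by TMM) on average through 65.7 to 6.26 CPM, KRT5 from 2548 through 3268 to 686 CPM and ITGA6 from 926 through 1263 to 524.5 CPM. Among those that rose, KRT17 went from 895 through 1095 to 2268 CPM, LAMB3 from 969 through 741 to 2776 CPM and EPCAM from 30.3 through 141.5 to 266.9 CPM. The others that rose in MCF10Ca1a against MCF10A were CDH1 (5.15-fold), KRT8 (3.6-fold), KRT18 (2.465-fold) and TP63 (1.102-fold). The 10 fibroblast markers summed to 52.7 to 60.1 TPM, 55 to 67.4 TPM and 19.3 to 26.5 TPM, and DPT was at 0 in all libraries, THY1 and COL3A1 in all of MCF10A, COL1A2 in all of MCF10AT1 and COL1A2, LUM and THY1 in all of MCF10Ca1a. These genes moved apart too: DCN had 4.42, 30.7 and 0.169 CPM, FAP 68.6, 45.7 and 24.2 CPM and COL1A1 9.16, 3.31 and 5.11 CPM on average in MCF10A, MCF10AT1 and MCF10Ca1a. The sum was lowest in MCF10Ca1a, as was the mean level of VIM, FN1, POSTN, TGFBI, FBN1 and P3H3, and its part in the results was not tested. The 4 myoepithelial markers summed to 9.15 to 14.4 TPM in MCF10A, 5.7 to 6.51 TPM in MCF10AT1 and 2.7 to 3.6 TPM in MCF10Ca1a, highest in MCF10A and lowest in MCF10Ca1a as for VIM. ACTA2 had 10.3, 5.51 and 2.19 CPM on average and OXTR 0.763, 1.86 and 0.974 CPM, highest in MCF10AT1, with CNN1 at 0 in every library. The 4 endothelial markers summed to 0.674 to 0.901 TPM, 0.868 to 1.32 TPM and 15.6 to 20.8 TPM, where PECAM1 had 3.12, 3.54 and 45.4 CPM on average, KDR had 0.564, 0.41 and 0.0094 CPM, and VWF and CDH5 had at most 3 counts in any library. The 4 leukocyte markers summed to 15.9 to 22.4 TPM, 6.04 to 6.6 TPM and 30.3 to 33.3 TPM, with CD3E at 0 in every library and the 2 detected markers apart, CD68 at 14.8, 4.04 and 41.9 CPM and CD14 at 9.16, 4.40 and 0.208 CPM on average. The part of these lists in the results was not tested. MCF10A replicate 1 differed most from the other libraries of its line and had the highest level of the 3 for 9 of the 10 genes (POSTN was the exception), against 45.5% of all genes tested. Its level relative to the mean of the other 2 MCF10A libraries ran from 1.05 to 1.35 times over the 10 genes. Where a result for any of these 10 genes changes without it, this is given beside the gene. Because the RNA is from whole cultures, fewer cells expressing a gene and less RNA per cell cannot be told apart.

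In MCF10A the order of levels per length was TGFBI, VIM, THBS1, SPARC, FN1, LOX, TNC, POSTN, FBN1 and P3H3, from 1556 ± 294 TPM (SD, n = 3) for TGFBI to 0.838 ± 0.194 TPM (SD, n = 3) for P3H3. FN1 (16.6 TPM) overlapped LOX (15.9 TPM) and LOX overlapped TNC (12.3 TPM) between libraries, and no other neighbours in this order overlapped. In MCF10AT1 it was TGFBI (420.3 TPM), VIM (356 TPM), THBS1 (310.0 TPM), LOX, FN1, TNC, POSTN, FBN1, SPARC (0.281 TPM) and P3H3 (0.0251 TPM), with no neighbours overlapping. In MCF10Ca1a the order opened with THBS1 (155 ± 7.27 TPM, SD, n = 3), VIM (112 ± 0.994 TPM, SD, n = 3) and TGFBI (98.8 ± 3.26 TPM, SD, n = 3), followed by LOX (46.5 TPM), TNC (14.1 TPM), SPARC (5.50 TPM), FN1 (4.70 TPM) and FBN1 (0.391 TPM) without overlap, and POSTN and P3H3 stood at 0. The summed level of the 10 genes was 2122 to 3017 TPM in MCF10A, 1112 to 1186 TPM in MCF10AT1 and 433.4 to 444.8 TPM in MCF10Ca1a, with no overlap between lines. TGFBI and VIM carried most of the sum in MCF10A (61.3% and 31%), whereas THBS1 was 3.71% of it there and 35.5% in MCF10Ca1a.

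**Figure D1:**
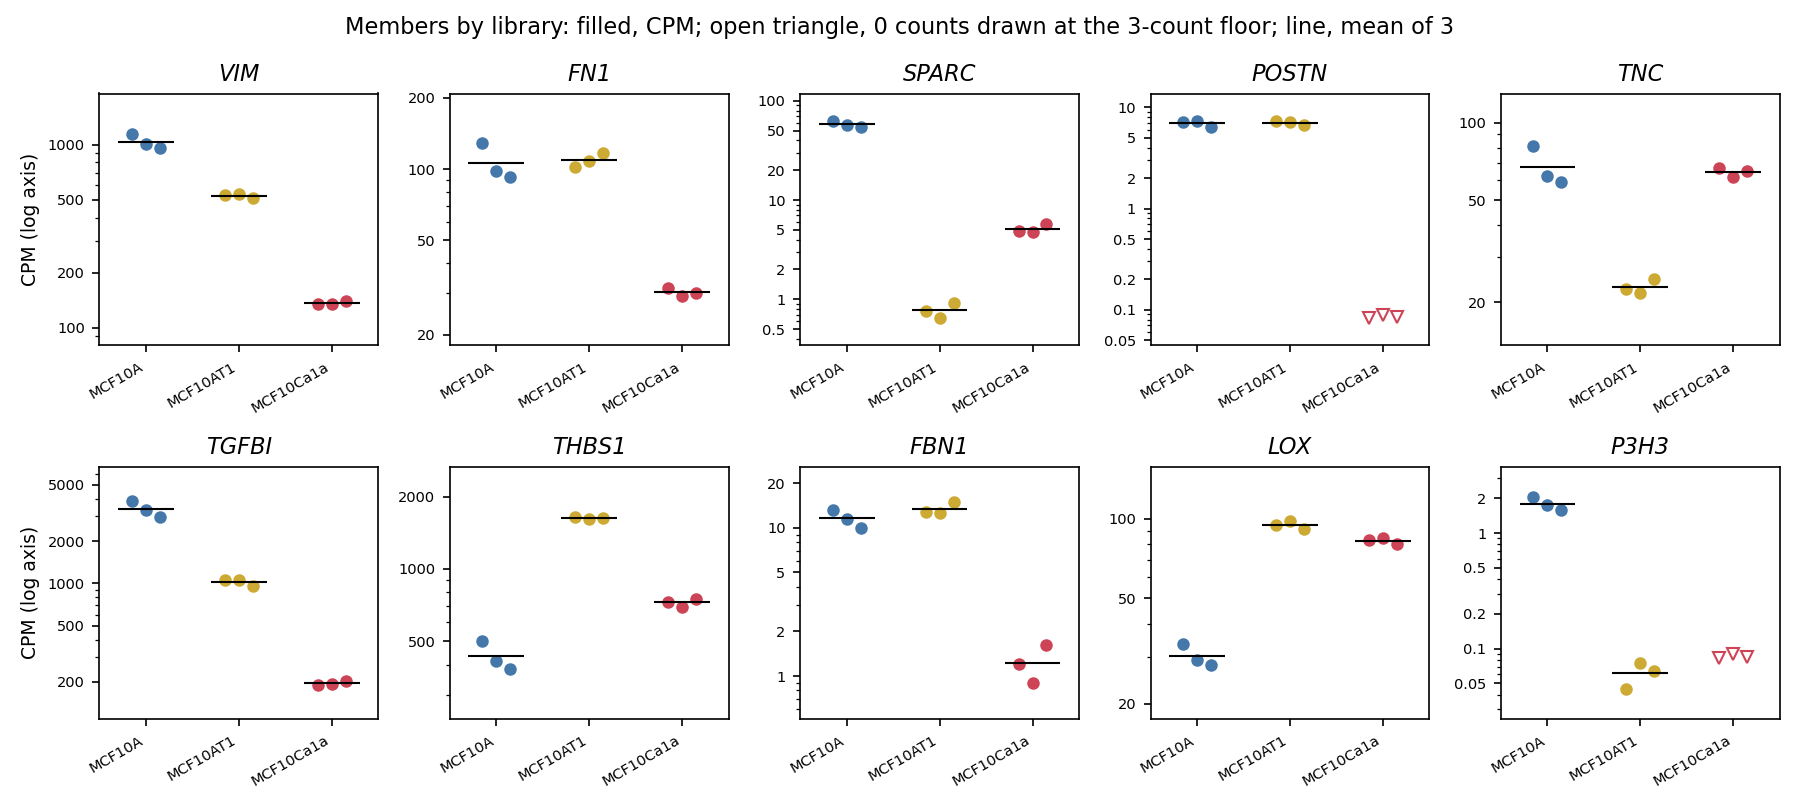
Level of each of the 10 genes in every library, in CPM (counts scaled to the depth of the library, log axis), by line; filled points are libraries, open triangles mark 0 counts drawn at the 3-count floor and lines are means of 3. VIM and TGFBI step down through both derived lines, SPARC and TNC are lowest in MCF10AT1, THBS1 is highest there, and POSTN and P3H3 have 0 counts in all 3 MCF10Ca1a libraries.

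Changes are log2 fold changes of counts with standard errors (SE) from edgeR's quasi-likelihood test, and a gene is said to rise or fall where its p, adjusted over all genes tested by the Benjamini-Hochberg method, was under 0.05. In MCF10AT1 against MCF10A 2 of the 10 genes rose (THBS1 and LOX), 5 fell (VIM, SPARC, TNC, TGFBI and P3H3) and 3 did not pass the test (FN1, POSTN and FBN1). Of all genes tested in this comparison 61.6% passed (29.8% higher, 31.8% lower), so 7 of 10 is near that background. Without MCF10A replicate 1 the rises were 4, with FN1 and FBN1 added. In MCF10Ca1a against MCF10AT1 all 10 passed, SPARC and TNC higher and 8 lower, where 78.4% of all genes passed (38% higher, 40.3% lower). In MCF10Ca1a against MCF10A 9 passed, THBS1 and LOX higher and 7 lower, where 80.9% of all genes passed (39% higher, 41.9% lower). The median log2 change of the 10 genes was -0.48, -1.90 and -3.07 in these comparisons, beside -0.00383, -0.04 and -0.05 over all genes tested, which is a description of a chosen list. With genes at the floor of 3 counts set to the smallest change the floor allows, the median of the second was -1.51 and the others did not move. The median size of their changes, whatever the sign, was 1.60, 2.17 and 3.07, beside 0.38, 0.76 and 0.84. Levels of the lines did not overlap between libraries for 7, 10 and 9 of the 10 genes, beside 65.4%, 81.9% and 81.5% of all genes. The 3 comparisons share libraries and are not independent of each other.

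**Figure D2:**
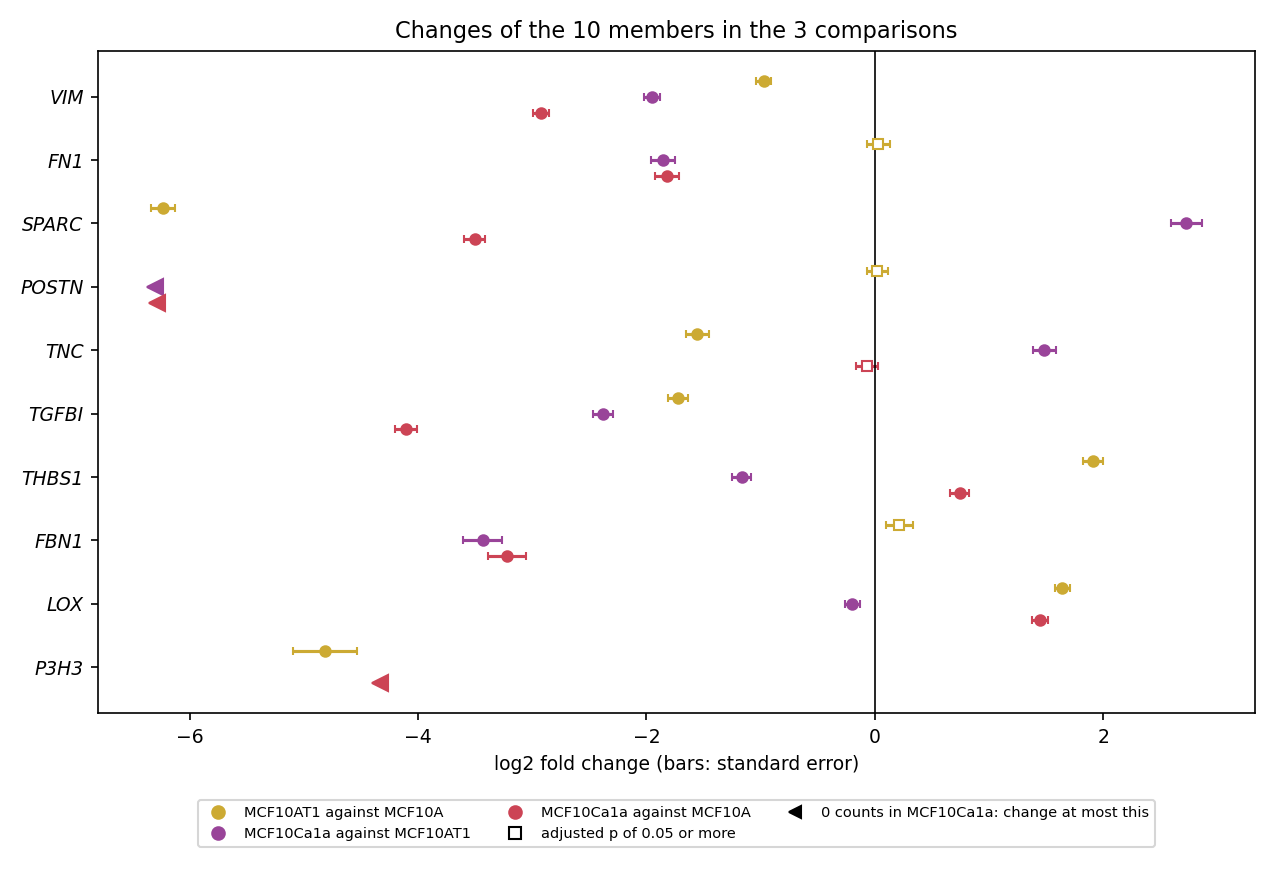
Log2 fold change of the 10 genes in the 3 comparisons (x axis; bars are standard errors); open squares mark an adjusted p of 0.05 or more and left-pointing triangles mark genes with 0 counts in MCF10Ca1a, whose change is at most the value drawn. P3H3 in MCF10Ca1a against MCF10AT1 is not drawn because both lines lie near the floor. Only SPARC, TNC, THBS1, LOX, FN1, POSTN and FBN1 have a point right of 0.

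The promoters of the genes differ in the short motifs they hold. RefSeq promoters (GRCh38.p14) were found for all 10, and the 250 bases before each start were searched for TATAAA or TATAAG on the gene's strand and, on both strands, for TGANTCA (the AP-1 motif), GGAATG (the TEAD motif), GGGCGG (the GC box) and CACCTG (an E-box). The GC box was in 6 of 10 (42.3% of all 27305 promoters), the TATA-like motif in 3 (9.89%), the TEAD motif in 3 (11.9%), the AP-1 motif in 1 (6.6%) and this E-box in 0 (17.5%). VIM, which fell at both steps, and THBS1, which had its highest level in MCF10AT1, are shown as an example of a promoter with 1 GC box and of one with 4 GC boxes and a TEAD motif, at chr10:17227991-17228240 (plus strand) and chr15:39580829-39581078 (plus strand). Motif matches are in capitals and are matches of letters only. The start is that of RefSeq, and for 7 of the 10, among them SPARC and POSTN, part or all of the 250 bases lies inside the longer GENCODE 29 gene.
VIM promoter: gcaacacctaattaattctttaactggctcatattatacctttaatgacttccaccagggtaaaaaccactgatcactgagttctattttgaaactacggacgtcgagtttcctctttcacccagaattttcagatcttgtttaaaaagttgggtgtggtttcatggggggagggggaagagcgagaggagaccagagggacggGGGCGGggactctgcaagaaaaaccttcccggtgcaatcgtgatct
THBS1 promoter: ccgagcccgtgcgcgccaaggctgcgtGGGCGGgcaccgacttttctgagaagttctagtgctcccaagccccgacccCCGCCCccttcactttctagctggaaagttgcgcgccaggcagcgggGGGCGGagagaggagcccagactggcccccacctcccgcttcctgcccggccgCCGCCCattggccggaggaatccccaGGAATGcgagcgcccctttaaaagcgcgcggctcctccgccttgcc
POSTN, with 0 counts in MCF10Ca1a, held the only AP-1 match of the 10 at 220 bases before its RefSeq start and a TATA-like match at 29 bases, the latter inside the GENCODE gene. These 30-base windows lie at chr13:37598971-37599000 and chr13:37598780-37598809 on the minus strand.
POSTN AP-1 window: ttaaacatgcagTGAGTCAattgttcatat
POSTN TATA window: ctctgacatgtaTATAAAttctgagctctc
SPARC, the gene with the largest fall in MCF10AT1 among the 10, held a TEAD match on the opposite strand at 17 bases before its RefSeq start and inside the GENCODE gene, shown in a window at chr5:151686916-151686945 (minus strand).
SPARC window: ctaaacccctccaCATTCCcgcggtccttc

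VIM (ENSG00000026025.16, chromosome 10:17228259-17237593, plus strand, with all gene positions from GENCODE 29 on GRCh38) fell at both steps. Its libraries held 1140, 1010 and 956 CPM in MCF10A, 529, 540 and 514 CPM in MCF10AT1, and 134, 135 and 140 CPM in MCF10Ca1a. All MCF10A libraries lay above all MCF10AT1 libraries, and these above all MCF10Ca1a libraries. The fall was 1.96-fold in MCF10AT1 against MCF10A (log2 change -0.97, SE 0.0663, edgeR adjusted p 2.37e-08) and 3.86-fold in MCF10Ca1a against MCF10AT1 (-1.95, SE 0.0688, adjusted p 9.58e-12), giving 7.59-fold in MCF10Ca1a against MCF10A (-2.92, SE 0.0712, adjusted p 1.89e-13). The lowest level, 112 ± 0.994 TPM in MCF10Ca1a, still placed VIM second among the 10 genes in that line.

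VIM-AS1, which overlaps VIM on the other strand, had 2.44 ± 0.0531 CPM in MCF10A, 2.68 ± 0.163 CPM in MCF10AT1 and 1.09 ± 0.32 CPM in MCF10Ca1a (SD, n = 3). Stranded libraries were made, but whether the counting used strand is not given in the sources used here, so VIM-AS1 counts are uncertain. The nearest genes tested on either side, TRDMT1 and HACD1, had 10.9, 12.01 and 4.59 CPM and 12.95, 11.95 and 2.36 CPM on average, both lowest in MCF10Ca1a. The genes whose profile over the 9 libraries lay nearest to that of VIM, among 12737 compared, were PIK3R1 (root mean square distance 0.0349 in centred log2 CPM), a regulatory subunit of PI3-kinase, and SPOCK1 (0.0438), a matrix proteoglycan of the SPARC family. SPOCK1 held 40.1, 21.4 and 5.44 CPM on average in MCF10A, MCF10AT1 and MCF10Ca1a. Of 7 other intermediate filament genes of the vimentin class and partners 3 were tested: 2 rose and 0 fell in MCF10AT1 against MCF10A, 1 rose and 2 fell in MCF10Ca1a against MCF10AT1, and 2 rose and 1 fell in MCF10Ca1a against MCF10A, where 61.6%, 78.4% and 80.9% of all genes passed. The last 2 counts of falls were 1 and 0 with scaled counts and with limma on log2(TPM + 1). PLEC, which encodes plectin, the linker that ties vimentin filaments to the cytoskeleton and to adhesions, rose at both steps, from 626 ± 29.8 CPM through 865 ± 126 CPM to 2064 ± 166 CPM (SD, n = 3; 3.30-fold in MCF10Ca1a against MCF10A, log2 change 1.72, SE 0.0959, edgeR adjusted p 7.66e-10). SYNM, a filament protein that co-assembles with vimentin and was chosen here after its values were seen, rose 17.1-fold in MCF10AT1 and then fell 4.13-fold, with 0.297 ± 0.00369 CPM, 5.13 ± 0.276 CPM and 1.24 ± 0.0687 CPM (SD, n = 3) in the 3 lines.

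FN1 (ENSG00000115414.21, 2:215360440-215436172, minus strand) fell only at the second step. It had 129, 98.1 and 92.5 CPM in MCF10A, 102, 109 and 117 CPM in MCF10AT1, and 31.4, 29.2 and 29.9 CPM in MCF10Ca1a. The MCF10A and MCF10AT1 libraries overlapped, and all MCF10Ca1a libraries lay below both. The log2 change was 0.03 (SE 0.0993, edgeR adjusted p 0.805) in MCF10AT1 against MCF10A, and FN1 fell 3.61-fold in MCF10Ca1a against MCF10AT1 (-1.85, SE 0.107, adjusted p 1.49e-09) and 3.54-fold against MCF10A (-1.82, SE 0.107, adjusted p 1.40e-09). Without MCF10A replicate 1, FN1 was higher in MCF10AT1 than in MCF10A (log2 change 0.19, edgeR adjusted p 0.00772), so the absence of a call there rests on that library. The genes with the nearest profile were DBN1 (distance 0.0842), an actin-binding protein, and FKBP5 (0.0849), a co-chaperone of the glucocorticoid receptor. ATIC and MREG, the nearest genes tested on either side, had 152.2, 151.5 and 121.3 CPM and 29.1, 28.4 and 10.7 CPM on average in MCF10A, MCF10AT1 and MCF10Ca1a.

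FN1 transcripts differ by cassette exons, of which EDA and EDB each encode an additional fibronectin type III domain and are left out of the plasma form of the protein made by liver. Their sequences on GRCh38 are at chr2:215380811-215381080 for EDA (270 bases) and chr2:215392931-215393203 for EDB (273 bases), both on the minus strand. Capitals in EDA mark the 21 bases (117 to 137 from its first base) that encode the loop known to bind integrins containing the alpha-4 or alpha-9 chain.
EDA: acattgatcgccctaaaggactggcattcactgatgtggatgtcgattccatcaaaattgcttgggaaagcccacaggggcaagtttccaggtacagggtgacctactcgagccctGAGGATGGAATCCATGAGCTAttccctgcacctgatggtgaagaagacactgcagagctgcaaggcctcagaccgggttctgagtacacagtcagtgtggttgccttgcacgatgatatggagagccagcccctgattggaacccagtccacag
EDB: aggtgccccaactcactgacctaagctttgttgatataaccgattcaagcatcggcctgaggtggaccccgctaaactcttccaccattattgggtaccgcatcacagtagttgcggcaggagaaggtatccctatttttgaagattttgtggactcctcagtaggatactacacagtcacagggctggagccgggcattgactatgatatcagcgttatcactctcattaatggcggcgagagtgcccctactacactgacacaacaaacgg
Transcripts that include EDA made up 73.1, 76.05 and 68.9% of the TPM of transcripts spanning it in MCF10A, 67.7, 71.4 and 65.9% for MCF10AT1 libraries, and 77.5, 62.4 and 75.3% in MCF10Ca1a. The means were 72.7 ± 3.58%, 68.3 ± 2.80% and 71.7 ± 8.18% (SD, n = 3), and the libraries of the 3 lines overlapped. EDB was included in 13.9, 18.2 and 11.7%, then 17.1, 21.8 and 20.5%, then 0, 6.68 and 28.3%, so the MCF10Ca1a libraries spread over the whole range of the other lines. These shares come from transcripts that span the exon in GENCODE 29 and hold 77.6% to 97.3% of the FN1 TPM, and they rest on the authors' assignment of reads to transcripts, whose uncertainty is not known here. The integrin alpha-4 gene ITGA4 went from 8.83, 7.69 and 7.38 CPM in MCF10A through 7, 6 and 4 counts in MCF10AT1 to 0 counts in MCF10Ca1a. The alpha-9 gene ITGA9 was near the floor in all lines, at 0.0379 to 0.0554 CPM on average.

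The most abundant FN1 transcript was FN1-202 (ENST00000336916.8), with 52.4 ± 3.65% of the FN1 TPM in MCF10A, 49.4 ± 12% in MCF10AT1 and 60.2 ± 7.29% in MCF10Ca1a (SD, n = 3). Shares were tested with limma as log2 ratios of each transcript to the other transcripts of the gene, over 49116 transcripts. Of 27 FN1 transcripts deposited 6 were tested, and 0 changed their share at an adjusted p under 0.05 in any comparison, or at an unadjusted p under 0.05. Over all transcripts tested 3.37%, 22% and 27.5% passed in MCF10AT1 against MCF10A, MCF10Ca1a against MCF10AT1 and MCF10Ca1a against MCF10A. The standard errors for these 6 transcripts were 0.361 to 1.4 on the log2 scale, so small changes of share were not detectable. With a pseudocount of 1 in place of 0.1, 0, 1 and 2 of the 6 passed in the 3 comparisons, and with a mean of at least 2 TPM none could be tested. In the other settings and with any library left out 0 passed.

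TGFBI (ENSG00000120708.17, 5:136028895-136063818, plus strand), a secreted fasciclin-domain protein that binds integrins and collagen, was the gene of the 10 with the highest level in MCF10A and fell at both steps. It had 3846, 3347 and 2955 CPM in MCF10A, 1060, 1052 and 959 CPM in MCF10AT1, and 191, 194 and 204 CPM in MCF10Ca1a. No libraries of different lines overlapped. It fell 3.31-fold (log2 change -1.72, SE 0.0873, edgeR adjusted p 1.11e-09), then 5.21-fold (-2.38, SE 0.0899, adjusted p 1.88e-11), and 17.2-fold in MCF10Ca1a against MCF10A (-4.11, SE 0.0967, adjusted p 1.37e-13). SLC26A2, a sulfate transporter, and PID1 had the profiles nearest to that of TGFBI (distances 0.139 and 0.165). Of the nearest tested genes on either side, CXCL14 had 0.857, 0.276 and 0.0772 CPM and SMAD5 186, 172 and 98.4 CPM on average in MCF10A, MCF10AT1 and MCF10Ca1a. In TPM SMAD5 had 64.2, 55.7 and 64.3, so its lower level in MCF10Ca1a was not seen on that scale.

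POSTN (ENSG00000133110.15, 13:37562583-37598844, minus strand), the other fasciclin-domain protein of the 10 and best known from fibroblasts, had counts in MCF10A and MCF10AT1 and 0 counts in MCF10Ca1a. It had 461, 471 and 448 counts in MCF10A (6.42 to 7.28 CPM), 487, 472 and 419 counts in MCF10AT1 (6.75 to 7.30 CPM), and 0 in all 3 MCF10Ca1a libraries. The libraries of the former lines overlapped (log2 change 0.02, SE 0.0903, edgeR adjusted p 0.861). Against a floor of 3 counts per library, MCF10Ca1a had a POSTN level at least 79.2-fold lower than MCF10AT1 (edgeR adjusted p 1.95e-11) and at least 78.1-fold lower than MCF10A (adjusted p 1.38e-11). The floor of 3 counts corresponds to at most 0.0892 CPM in an MCF10Ca1a library and covers counting error only. SUPT20H, the nearest gene tested on 1 side, had 51.4, 45.6 and 46.3 CPM on average in the 3 lines. LINC00571, the nearest on the other side, had 0.238, 0.184 and 0.0677 CPM, and was lower in MCF10Ca1a than in MCF10AT1 (edgeR adjusted p 0.0242) and MCF10A (adjusted p 0.0053) at counts close to the floor.

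SPARC (ENSG00000113140.11, 5:151661096-151687165, minus strand), a collagen-binding matricellular protein, fell in MCF10AT1 and was higher again in MCF10Ca1a without reaching the level of MCF10A. It had 63, 57.8 and 54.5 CPM in MCF10A, 0.765, 0.649 and 0.918 CPM in MCF10AT1, and 4.92, 4.73 and 5.78 CPM in MCF10Ca1a. No libraries of different lines overlapped. SPARC fell 75.2-fold in MCF10AT1 against MCF10A (log2 change -6.23, SE 0.108, edgeR adjusted p 2.34e-14), rose 6.63-fold in MCF10Ca1a against MCF10AT1 (2.73, SE 0.138, adjusted p 3.60e-10) and was 11.4-fold lower in MCF10Ca1a than in MCF10A (-3.50, SE 0.0892, adjusted p 2.75e-13). The nearest profiles were those of TNFRSF10C (distance 0.367) and SLC26A11 (0.405), both at 0 or 1 count in each MCF10AT1 library. ATOX1, the nearest gene tested on 1 side, had 54.3, 63.0 and 45.9 CPM on average and was highest in MCF10AT1. ENSG00000260581, on the other side, had 0.279, 0.0469 and 0.00991 CPM, near the floor in the derived lines.

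The size of the SPARC changes depended on the scale. In TPM per gene SPARC had 50.8 ± 8.15, 0.281 ± 0.0457 and 5.5 ± 0.216 TPM (SD, n = 3), a ratio of 181 for MCF10A over MCF10AT1 and of 19.5 for MCF10Ca1a over MCF10AT1. The transcripts of SPARC, examined after the gene values were seen, differed in kind between the lines. In MCF10AT1 100% of the SPARC counts of every library were assigned to the protein-coding SPARC-201 (ENST00000231061.9, 3701 bases), whereas in MCF10A this transcript took 39.6 ± 0.99% and in MCF10Ca1a 28.2 ± 8.82% (SD, n = 3). The retained-intron transcript SPARC-202 (ENST00000520687.1, 1598 bases) took 50.2 ± 0.268% in MCF10A and 56.3 ± 6.7% in MCF10Ca1a. SPARC-201 alone had 10.3, 8.93 and 8.28 TPM in MCF10A, 0.28, 0.237 and 0.328 TPM in MCF10AT1, and 0.692, 0.365 and 0.825 TPM in MCF10Ca1a. On this measure MCF10Ca1a was 2.23 times MCF10AT1, its libraries still above those of MCF10AT1, and MCF10A was 32.6 times MCF10AT1. The SPARC libraries of MCF10AT1 held 43 to 57 counts in all, so their split between transcripts rests on few reads, and no test was made of it.

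**Figure D3:**
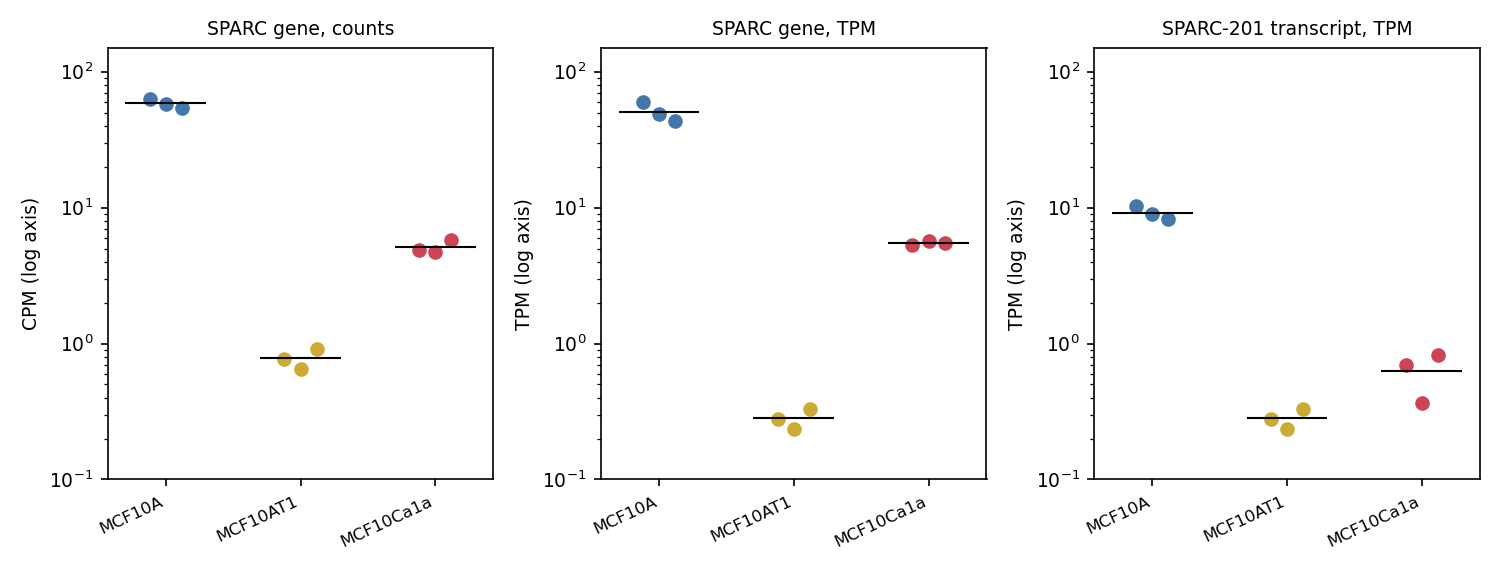
SPARC by library on 3 scales (log axes): gene counts in CPM, gene TPM, and TPM of the protein-coding transcript SPARC-201; points are libraries and lines are means of 3. MCF10AT1 is lowest in each, and the distance from MCF10Ca1a to MCF10AT1 is a ratio of 19.5 in gene TPM and 2.23 in SPARC-201 TPM.

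TNC (ENSG00000041982.17, 9:115019578-115118257, minus strand), a large glycoprotein that loosens cell attachment to fibronectin, also had its lowest level in MCF10AT1. It had 81.1, 62.1 and 59 CPM in MCF10A, 22.5, 21.8 and 24.5 CPM in MCF10AT1, and 66.7, 61.3 and 64.6 CPM in MCF10Ca1a. The MCF10AT1 libraries lay below all others, and those of MCF10A and MCF10Ca1a overlapped. TNC fell 2.94-fold in MCF10AT1 against MCF10A (log2 change -1.56, SE 0.1, edgeR adjusted p 1.31e-08) and rose 2.80-fold in MCF10Ca1a against MCF10AT1 (1.48, SE 0.102, adjusted p 8.88e-09). MCF10Ca1a and MCF10A were not called different (log2 change -0.07, SE 0.0972, adjusted p 0.514). This difference changed sign with the scale and without MCF10A replicate 1 (0.07, edgeR adjusted p 0.233), and TNC was called lower when no filter on low counts was used (-0.15, adjusted p 0.0458). SLC46A1 and ADCY7 had the nearest profiles (distances 0.103 and 0.13), and the neighbour TNFSF15 had 2.37, 0.206 and 2.16 CPM on average, lowest in MCF10AT1 as well. PAPPA, the nearest gene tested on the other side, had 6.12, 7.12 and 8.81 CPM and was lowest in MCF10A.

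TNC totals overlapped between MCF10A and MCF10Ca1a, while the assigned shares of 2 TNC transcripts differed. As for FN1, shares rest on the authors' assignment of reads to transcripts, whose uncertainty is not known here. Of 15 TNC transcripts deposited 5 were tested, and 1, 1 and 2 changed their share in MCF10AT1 against MCF10A, MCF10Ca1a against MCF10AT1 and MCF10Ca1a against MCF10A, beside the 3.37%, 22% and 27.5% of all transcripts. TNC-211 (ENST00000537320.6, 4946 bases) made up 12.7, 12.1 and 8% of the TNC TPM in MCF10A, 28.2, 28.3 and 24.2% for MCF10AT1 libraries, and 36.9, 36.2 and 27.9% in MCF10Ca1a. Its share in every library of the derived lines was above all MCF10A libraries. The log2 change of its ratio to the rest of the gene was 1.60 in MCF10AT1 against MCF10A (SE 0.231, limma adjusted p 0.0137) and 1.98 in MCF10Ca1a against MCF10A (SE 0.231, adjusted p 0.000741), and 0.39 between the derived lines (SE 0.231, adjusted p 0.276). The first of these calls was lost without MCF10AT1 replicate 1 or replicate 2 (limma adjusted p 0.0537 and 0.0567).

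TNC-201 (ENST00000341037.8, 6786 bases) moved the other way. It made up 23.95, 22.1 and 30.6% of the TNC TPM in MCF10A, 18, 14.9 and 28% for MCF10AT1 libraries, and 2.96, 8.25 and 9.70% in MCF10Ca1a. All MCF10Ca1a libraries lay below all others, and those of MCF10A and MCF10AT1 overlapped (log2 change of the ratio -0.36, SE 0.456, limma adjusted p 0.762). The ratio was lower in MCF10Ca1a than in MCF10A (log2 change -2.22, SE 0.456, limma adjusted p 0.00995) and than in MCF10AT1 (-1.86, SE 0.456, adjusted p 0.0249). The latter call was lost without MCF10AT1 replicate 1 or 3 (limma adjusted p 0.0604 and 0.0787), with transcript counts in place of TPM (0.0538) and when only the 2 lines were fitted (0.0608). ENST00000705191.1 was at 7.60, 8.08 and 10.2% of the TNC TPM in MCF10A and listed at 0 in the other 6 libraries, and did not reach the level needed for the test. ENST00000705192.1 held 30.3 ± 4.75%, 28.3 ± 3.8% and 28.1 ± 6.72% (SD, n = 3) in the 3 lines and did not pass the test in any comparison. TNC-209 did not pass either, and its share was uneven between libraries. It had 0, 6.02 and 0% in MCF10A, 0, 16.4 and 0% for MCF10AT1 libraries, and 6.86, 8.76 and 18.6% in MCF10Ca1a.

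**Figure D4:**
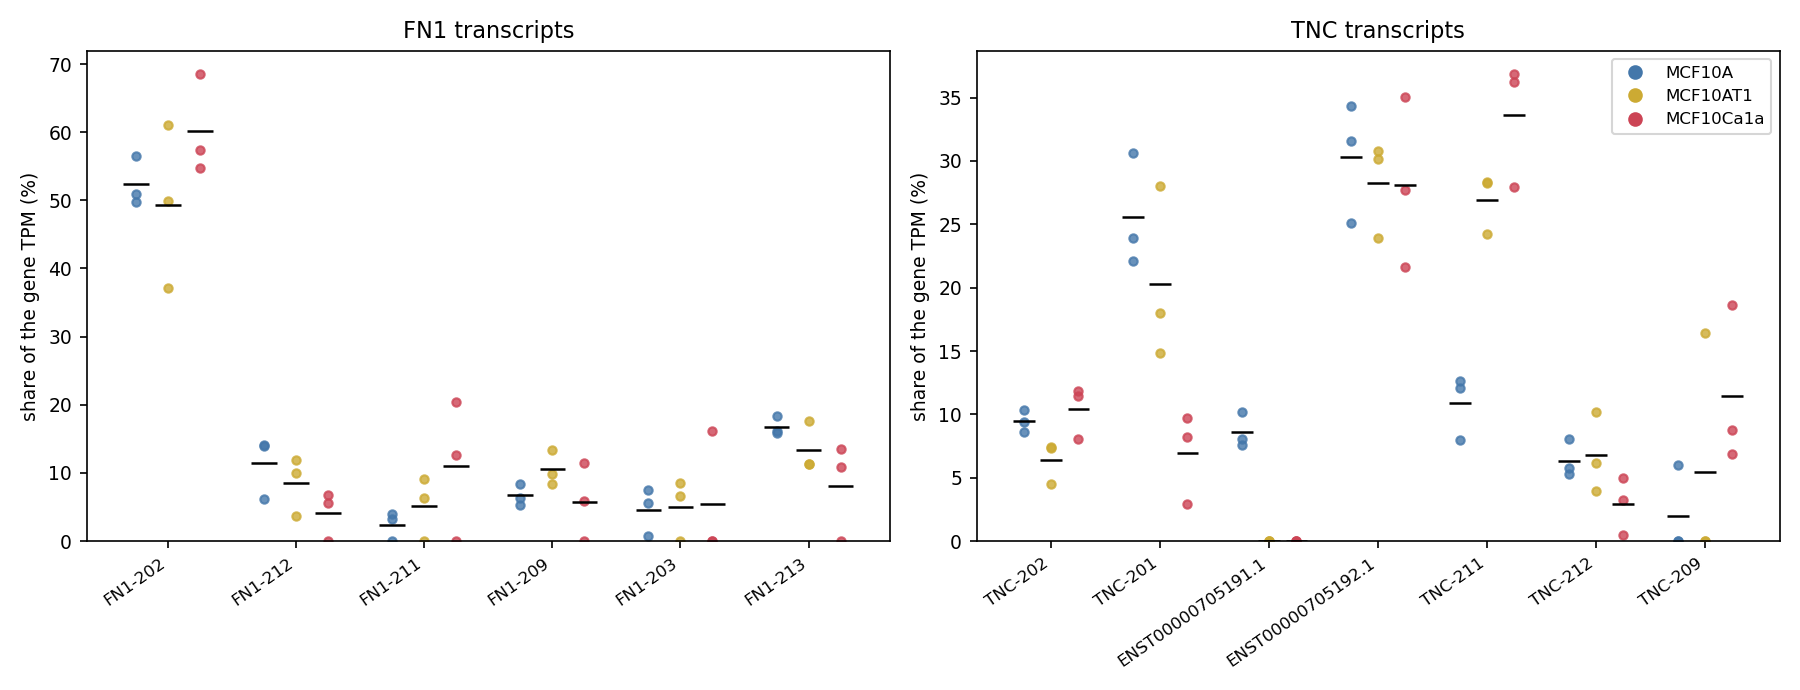
Share of the TPM of FN1 (left) and TNC (right) taken by each transcript with at least 5% in the mean of any line (y axis, percent); points are libraries, coloured by line, and lines are means of 3. For TNC the share of TNC-211 is lowest in MCF10A and that of TNC-201 is lowest in MCF10Ca1a, while FN1-202 is the main FN1 transcript in all 3 lines.

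THBS1 (ENSG00000137801.11, 15:39581079-39599466, plus strand), an adhesive glycoprotein that binds CD36, CD47 and integrins and can activate latent TGF-beta, rose in MCF10AT1, where VIM and TGFBI fell. In MCF10Ca1a against MCF10AT1 THBS1 fell as they did. It had 500, 415 and 385 CPM in MCF10A, 1645, 1609 and 1632 CPM in MCF10AT1, and 727, 697 and 753 CPM in MCF10Ca1a. No libraries of different lines overlapped, and MCF10A was the lowest. THBS1 rose 3.76-fold in MCF10AT1 against MCF10A (log2 change 1.91, SE 0.0848, edgeR adjusted p 2.96e-10), fell 2.25-fold in MCF10Ca1a against MCF10AT1 (-1.17, SE 0.0831, adjusted p 1.33e-08) and was 1.68-fold higher in MCF10Ca1a than in MCF10A (0.74, SE 0.0826, adjusted p 1.38e-06). The intronic THBS1-IT1, on the same strand inside THBS1, had 0.463, 1.68 and 0.315 CPM on average, highest in MCF10AT1 as well, and so was FSIP1, which overlaps THBS1 on the other strand, with 2.32, 4.35 and 2.20 CPM. The use of strand in counting is not known here, so FSIP1 counts are uncertain, as are those of THBS1-IT1, which lies within THBS1. The nearest genes tested to the left and right, ENSG00000259345 and ENSG00000261136, had 0.596, 0.645 and 0.562 CPM, with the lines overlapping, and 0.591, 0.47 and 0.248 CPM, with the highest mean in MCF10A. The 2 genes with the nearest profiles were PRICKLE1 (distance 0.0681) and TMEM54 (0.0822), and LOX was the nearest to THBS1 among the 10 genes (0.413).

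LOX (ENSG00000113083.15, 5:122063195-122078360, minus strand), the copper enzyme that starts the cross-linking of collagen and elastin, was higher in both derived lines. It had 33.7, 29.2 and 28.1 CPM in MCF10A, 94.6, 98.2 and 91.1 CPM in MCF10AT1, and 82.8, 84.7 and 80.3 CPM in MCF10Ca1a. All libraries of the derived lines lay above those of MCF10A. LOX rose 3.12-fold in MCF10AT1 against MCF10A (log2 change 1.64, SE 0.0662, edgeR adjusted p 1.14e-10) and was 2.73-fold higher in MCF10Ca1a than in MCF10A (1.45, SE 0.0668, adjusted p 1.01e-10). Between the derived lines it was 1.15-fold lower in MCF10Ca1a (-0.20, SE 0.0643, adjusted p 0.0127). This small difference was not called with DESeq2 size factors (-0.15, edgeR adjusted p 0.0508), and on the log2(TPM + 1) scale its sign was the opposite (0.10, limma adjusted p 0.411), where the median of all genes was 0.13. SRFBP1, which overlaps LOX on the other strand, had 29.8, 44.8 and 37.3 CPM on average, and its counts are uncertain for the same reason as those of VIM-AS1. The nearest genes tested on either side, PRR16 and ZNF474, had 0.6755, 2.03 and 0.144 CPM and 0.132, 0.328 and 0.499 CPM.

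Among the LOX-like enzymes, chosen for display after their values were seen, LOXL1 rose with LOX in MCF10AT1 and LOXL2 did not. LOXL1 counts were 175, 155 and 164 for MCF10A, 417, 368 and 322 for MCF10AT1, and 2, 1 and 0 for MCF10Ca1a. It rose 2.28-fold at the first step (log2 change 1.19, SE 0.132, edgeR adjusted p 3.54e-06) and was at least 63.5-fold lower in MCF10Ca1a than in MCF10AT1 (adjusted p 2.90e-11). LOXL2 fell 2.54-fold in MCF10AT1 (-1.35, SE 0.11, edgeR adjusted p 1.58e-07) and rose 2.38-fold in MCF10Ca1a against MCF10AT1 (1.25, SE 0.111, adjusted p 1.40e-07), with 99.2 ± 20.7, 39 ± 1.33 and 93 ± 4.32 CPM (SD, n = 3) in the 3 lines.

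FBN1 (ENSG00000166147.15, 15:48408306-48645849, minus strand), the main structural protein of microfibrils, fell in MCF10Ca1a. It had 13.25, 11.5 and 9.91 CPM in MCF10A, 12.8, 12.6 and 14.9 CPM in MCF10AT1, and 1.202, 0.892 and 1.61 CPM in MCF10Ca1a. All MCF10Ca1a libraries lay below the others, and those of MCF10A and MCF10AT1 overlapped. FBN1 fell 10.8-fold in MCF10Ca1a against MCF10AT1 (log2 change -3.43, SE 0.168, edgeR adjusted p 2.56e-10) and 9.32-fold against MCF10A (-3.22, SE 0.169, adjusted p 4.09e-10). The size depended on the scale: in TPM per gene FBN1 had 1.87, 2.35 and 0.391 TPM on average, a fall of 6.01 and 4.77 times, and length-scaled counts gave log2 changes of -2.89 and -2.41 (edgeR adjusted p 3.71e-08 and 1.64e-07). The change in MCF10AT1 against MCF10A was 0.21 (SE 0.119, adjusted p 0.134). It was called higher in MCF10AT1 without MCF10A replicate 1 (0.32, edgeR adjusted p 0.0177), with length-scaled counts (0.47, adjusted p 0.0224) and with no filter on low counts (0.23, adjusted p 0.025). FBN2, its paralogue, chosen after its values were seen, had a different course and fell 4.05-fold at the first step, with 121 ± 8.56, 29.9 ± 2.75 and 19.5 ± 1.47 CPM (SD, n = 3; log2 change -2.02, SE 0.0758, edgeR adjusted p 5.69e-11). DUT and CEP152, the nearest genes tested on either side of FBN1, had 107.2, 130.4 and 38.3 CPM and 25.8, 24.35 and 9.05 CPM on average in the 3 lines.

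P3H3 (ENSG00000110811.20, 12:6828410-6839851, plus strand) had the lowest level of the 10 in MCF10A. It had 132, 114 and 110 counts in MCF10A, 3, 5 and 4 in MCF10AT1 and 0 in all 3 MCF10Ca1a libraries. It fell 28.2-fold in MCF10AT1 against MCF10A (log2 change -4.82, SE 0.279, edgeR adjusted p 3.07e-08) and was at least 20.2-fold lower in MCF10Ca1a than in MCF10A (adjusted p 1.02e-08). In MCF10Ca1a against MCF10AT1 it passed the test (edgeR adjusted p 0.00247), but both lines lay near the floor, no fold is given, and it did not pass on the TPM scales (limma adjusted p 0.123 to 0.726). GPR162, which overlaps P3H3 on the same strand, had at most 1 count in any library. The neighbours LAG3 and CDCA3 were lowest in MCF10Ca1a, with 0.571, 0.8575 and 0.00932 CPM and 63.1, 42.2 and 7.205 CPM on average. Of all genes tested 41.9% fell in MCF10Ca1a against MCF10A, and the part of neighbours was not tested. The other prolyl 3-hydroxylases, chosen after their values were seen, were higher in MCF10Ca1a than in MCF10A: P3H1 2.15-fold (log2 change 1.10, SE 0.0633, edgeR adjusted p 1.08e-09) and P3H2 2.17-fold (1.12, SE 0.0894, adjusted p 4.05e-08). P3H1 had 34.9 ± 3.28, 23.9 ± 0.45 and 74.9 ± 2.38 CPM and P3H2 had 54 ± 8.01, 175 ± 10.6 and 117 ± 5.07 CPM (SD, n = 3) in the 3 lines.

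Related matrix genes were counted in lists, and the counts are read against the shares of all genes given above. Of 16 microfibril and elastic fibre genes 12 were tested. In MCF10AT1 against MCF10A 3 rose and 6 fell (median log2 change -0.51), in MCF10Ca1a against MCF10AT1 3 rose and 7 fell (-0.96, or -0.50 with genes at the floor set to their bound), and in MCF10Ca1a against MCF10A 2 rose and 8 fell (-1.91, or -1.79). MFAP5, a microfibril-associated glycoprotein, went from 226, 195 and 189 counts through 54, 36 and 38 to 0, 1 and 0, and was at least 34.6-fold lower in MCF10Ca1a than in MCF10A (edgeR adjusted p 6.10e-10). LTBP3, which holds latent TGF-beta in the matrix, rose 2.56-fold over the same comparison (log2 change 1.35, SE 0.068, edgeR adjusted p 2.49e-10), with 28.1 ± 2.61, 36.3 ± 1.97 and 71.9 ± 2.8 CPM (SD, n = 3). LTBP1, of the same family and chosen after its values were seen, fell 22.1-fold (log2 change -4.47, SE 0.109, edgeR adjusted p 1.96e-13).

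Of 20 further matricellular and adhesive glycoprotein genes 11 were tested. In MCF10AT1 against MCF10A 6 rose and 4 fell (median 1.28), and in both comparisons of MCF10Ca1a 4 rose and 5 fell (-0.20 against MCF10AT1, -0.28 against MCF10A). The median of 1.28 is the value of THBS4, which had 4, 5 and 5 counts in MCF10A and 12, 13 and 9 in MCF10AT1. SMOC2 and NID2, also among these rises, were at the floor in MCF10A, so this median rests on genes with few counts. The rises in MCF10AT1 were 3 with limma on log2(TPM + 1). CCN3, a matricellular growth regulator, went from 220, 175 and 201 counts through 83, 63 and 83 to 1, 3 and 0, at least 33.7-fold lower in MCF10Ca1a than in MCF10A (edgeR adjusted p 2.30e-09). TNXB, the tenascin of connective tissue, shares near-identical sequence with the pseudogene TNXA, so its counts are uncertain. It rose from 18, 13 and 11 counts to 181, 133 and 141, 20.2-fold in MCF10Ca1a against MCF10A (log2 change 4.34, SE 0.216, edgeR adjusted p 2.28e-10), while the ratio of mean TPM was 11.6. Its change in MCF10AT1 against MCF10A (1.72, adjusted p 3.29e-05) was not called on the TPM scales or with the length-scaled or scaled counts.

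Of 18 collagen modification and cross-linking genes 17 were tested. In MCF10AT1 against MCF10A 4 rose and 10 fell (median -0.49), in MCF10Ca1a against MCF10AT1 9 rose and 5 fell (0.27), and in MCF10Ca1a against MCF10A 7 rose and 8 fell (-0.10). The 4 rises in MCF10AT1 were 2 with limma on log2(TPM + 1) without a filter. The 5 falls against MCF10AT1 were 3 on the TPM scales and with the length-scaled and scaled counts, and the 8 falls against MCF10A were 5 on the log2(TPM + 1) scale. P4HA1, a catalytic subunit of the prolyl 4-hydroxylase that stabilises the collagen helix, rose 4.84-fold in MCF10Ca1a against MCF10A (log2 change 2.28, SE 0.0714, edgeR adjusted p 2.02e-12), with 73.9 ± 5.22, 95.8 ± 8.1 and 358 ± 6.87 CPM (SD, n = 3). Its relative P4HA3 had 131, 125 and 130 counts in MCF10A and 0 in the other 6 libraries, at least 40.3-fold lower in MCF10AT1 (edgeR adjusted p 5.87e-08) and at least 21.8-fold lower in MCF10Ca1a (adjusted p 7.06e-08). LOXL1, also at the floor there, was at least 27.9-fold lower than in MCF10A, so which of them fell more is not determined. SERPINH1, the collagen chaperone of the endoplasmic reticulum, chosen after its values were seen, fell 4.40-fold in MCF10Ca1a against MCF10A (-2.14, SE 0.0838, edgeR adjusted p 1.84e-11).

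Of 16 genes for receptors that bind the proteins described here 13 were tested. In MCF10AT1 against MCF10A 2 rose and 8 fell (median -0.41), in MCF10Ca1a against MCF10AT1 9 rose and 4 fell (0.66), and in MCF10Ca1a against MCF10A 5 rose and 7 fell (-0.17). The 2 rises in MCF10AT1 were 1 with limma on log2(TPM + 1) without a filter. The 4 falls against MCF10AT1 were 1 on the TPM scales and 2 with the scaled counts. SDC4, a syndecan that works with integrins at fibronectin, rose 3.67-fold in MCF10Ca1a against MCF10A (log2 change 1.88, SE 0.0702, edgeR adjusted p 1.16e-11), with 178 ± 16.6, 353 ± 15.6 and 654 ± 15 CPM (SD, n = 3). ITGA5, the alpha chain of the classical fibronectin receptor and chosen after its values were seen, rose 3.35-fold in MCF10Ca1a against MCF10AT1 (1.74, SE 0.087, edgeR adjusted p 3.21e-10), the comparison in which FN1 fell 3.61-fold. ITGA4 was 89.1-fold lower in MCF10AT1 than in MCF10A (-6.48, SE 0.19, edgeR adjusted p 8.23e-11) and at least 89.3-fold lower in MCF10Ca1a (adjusted p 3.12e-11).

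**Figure D5:**
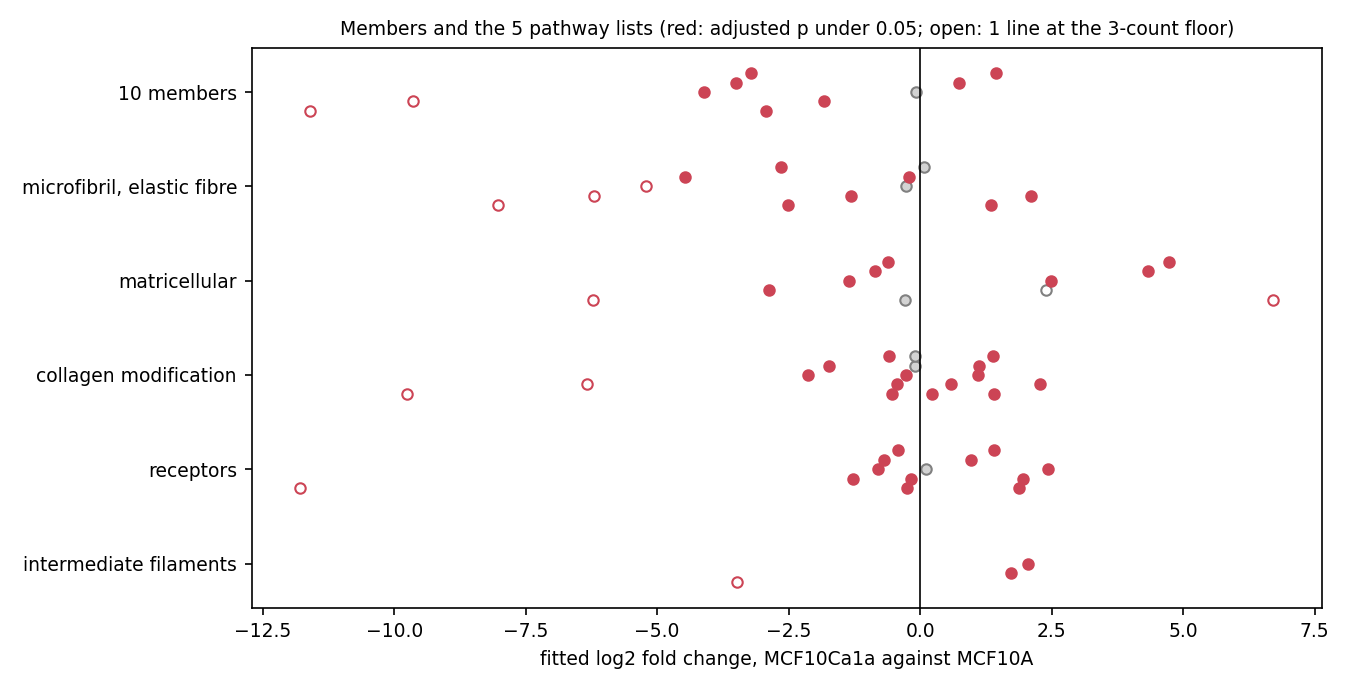
Fitted log2 fold change in MCF10Ca1a against MCF10A (x axis) for the 10 genes and for the tested genes of 5 related lists; each point is a gene, red where the adjusted p was under 0.05, and open where 1 of the lines lay at the 3-count floor, so that the fitted value is not a bound. Of the 10 genes 7 lie left of 0 in red and 2 right of 0, and of the 12 microfibril and elastic fibre genes 8 and 2.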

How the data were processed

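Stranded poly-A libraries, 3 for each of the lines MCF10A, MCF10AT1 and MCF10Ca1a, were sequenced, per the labels' protocols. The authors deposited estimated counts and TPM per gene and per transcript, made with Salmon on hg38 per the submitters' processing notes; versions and annotation are not given in the sources used here. Estimated counts were rounded, filtered with filterByExpr by line (minimum count 10, minimum total 15; 17910 of 62666 genes) and tested with edgeR 4.0.16 (quasi-likelihood, TMM, 9 libraries in 1 fit; R 4.3.3), with Benjamini-Hochberg adjustment at 0.05. CPM uses TMM-scaled totals. Counts of 3 or fewer in every library of a line were its floor, and folds against it use the highest floor of that line. Floors cover counting error only, since reads are not independent molecules. Depth was 32.9 to 69.5 M counts.

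Shares were tested with limma 3.58.1 on log2 ratios of TPM (pseudocount 0.1, mean of at least 0.5 TPM). Profiles were compared among genes of at least 1 CPM, and nearest profiles are those with the smallest distance over 9 libraries. In simulated data for MCF10AT1 against MCF10A, edgeR recovered 198 of 200 changed genes among 17412 with 15 false calls, and the share test 132 of 200 transcripts changed 4-fold among 48847 with 22 false calls. The changed genes were few, lay well above the floor and moved by fixed folds, equally up and down. In the real comparisons most genes passed, so these rates do not carry over to them or to genes near the floor. False calls of the share test leave out other transcripts of changed genes. Positions came from GENCODE 29 on GRCh38 by unversioned identifier.

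The genes and lists were chosen with earlier results of these data known. Named from each list were the largest rise and fall in MCF10Ca1a against MCF10A among genes called, whose higher line averaged at least 100 counts and whose libraries did not overlap, by fitted change, which sets no order among genes at the floor; named transcripts had at least 5% of the gene TPM in a line. Other names are marked as chosen after their values were seen. Alternatives were DESeq2 1.42.0 and its size factors, no filter, length-scaled and scaled counts, a replicate block, thinning, limma on log2(TPM + 1) and log2(TPM + 0.1), fits of the 2 lines alone, and each of the 9 libraries removed; for shares, other pseudocounts and minimum levels, and transcript counts.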

Additional observations from a re-analysis of the deposited data

How the results depend on the processing

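Of the 599 log2 changes of the 10 genes under other settings, 570 kept their direction and their side of the threshold and 20 reversed. With the direction kept, 5 became called and 4 lost their call. Among the reversed, the 3 of LOX in MCF10Ca1a against MCF10AT1 also lost their call (limma adjusted p 0.411 to 0.519). The number of the 10 genes called ranged from 7 to 9, 8 to 10 and 9 to 10 in MCF10AT1 against MCF10A, MCF10Ca1a against MCF10AT1 and MCF10Ca1a against MCF10A. In MCF10AT1 against MCF10A, FN1 was -0.083 with limma on log2(TPM + 1), with and without a filter, and -0.087 on log2(TPM + 0.1), and ran from -0.062 to 0.19 with 1 library left out (-0.027 without MCF10A replicate 2, -0.018 without MCF10AT1 replicate 3). POSTN was -0.067 and -0.085 on those scales and ran from -0.036 to 0.054 with 1 library left out (-0.0011 without MCF10AT1 replicate 1), and TNXB was -0.0043 on log2(TPM + 1). In MCF10Ca1a against MCF10AT1, LOX was 0.096 and 0.098 on the TPM scales. In MCF10Ca1a against MCF10A, TNC was 0.045 with length-scaled counts, 0.055 with scaled counts, and 0.20 and 0.21 on the TPM scales, and ran from -0.17 to 0.071 with 1 library left out. LOXL2 was 0.057 and 0.060 on the TPM scales. With 1 library left out it ran from -0.23 (without MCF10A replicate 3, called, edgeR adjusted p 0.021) to 0.070 (without MCF10A replicate 1, edgeR adjusted p 0.3). The cause of these changes was not tested.

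The TPM scales moved the median of all genes to -0.07, 0.13 and 0.06 on log2(TPM + 1) and to -0.11, 0.21 and 0.10 on log2(TPM + 0.1), so LOX in MCF10Ca1a against MCF10AT1 lay below that median. The share of higher among called genes went from 48.4% to 36.2% in MCF10AT1 against MCF10A and from 48.5% to 61.6% in MCF10Ca1a against MCF10AT1 on log2(TPM + 1).

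The number of FN1 and TNC transcripts with a changed share was 1, 1 and 2. It was 2, 3 and 4 with a pseudocount of 1, 2 in the first and 2 in the second with transcripts of at least 0.1 TPM, and 0 in the second and 1 in the third with at least 2 TPM. It was 0 in the second with transcript counts and with only the 2 lines fitted, and ran from 0 to 1, 0 to 1 and 2 to 3 with 1 library left out. The log2 change of the TNC-201 share in MCF10AT1 against MCF10A reversed to 0.10 with a pseudocount of 1.

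Libraries with the same replicate number did not deviate together (r from -0.0628 to 0.0466, 0 of 9 pairs over 0.1). For pairs with other numbers r ran from -0.0854 to 0.104 (1 of 18 over 0.1). With 3 libraries per line these values cannot show whether libraries of a number shared a batch, which was not tested. With the number as a replicate block in the same fits, 7, 10 and 9 of the 10 genes, 1, 1 and 2 transcripts, and 10846, 13917 and 14397 of all genes were called. Depth limits POSTN and P3H3 in MCF10Ca1a, where 3 counts are 0.0838 to 0.0892 CPM, and SPARC transcripts in MCF10AT1, with 43 to 57 counts.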
